A study of Mus musculus with 4 samples.

Results

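The cells described here were 84 cells of MC38 tumors that carried the 2 genes by which migratory dendritic cells are known, Ccr7 and Fscn1. They were chosen from 28194 cells in which 500 or more genes were detected and no more than 10% of the unique molecular identifiers (UMIs) fell on mitochondrial genes. A cell was taken when it held at least 2 UMIs of Ccr7 and at least 2 UMIs of Fscn1, had under 0.2% of its UMIs on C1qa, C1qb and C1qc, at most 2 UMIs on Cd3d, Cd3e and Cd3g, and at most 1 UMI on Ncr1 and Klrb1c. The last 3 limits keep out macrophages, T cells and NK cells. The 84 cells made up 0.298% of the filtered cells.

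Dendritic cells take up antigen in tissue and, once activated, switch to a mature program. Mature cells raise the chemokine receptor CCR7, which guides them along CCL19 and CCL21 to lymphatic vessels and the T cell zone of lymph nodes, and the actin-bundling protein fascin (Fscn1), which shapes their long processes. In tumors such cells also carry co-stimulatory and inhibitory ligands, the cytokine subunit IL-12p40 and the chemokines CCL22 and CCL17, which attract T cells that bear CCR4, regulatory T cells among them. None of the data here measured migration.

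The tumors were grown from MC38, a mouse colon carcinoma line, under C57BL/6 mice in which human CTLA-4 replaces the mouse gene, and all 4 groups shared these 2 features. Mice received isotype control IgG (10 mg/kg), a single antibody, or ipilimumab (anti-human CTLA-4, 10 mg/kg) together with AT130-2 (anti-mouse FcγRII, mouse IgG1 N297A, 20 mg/kg), up to 3 treatments from tumors of about 100 mm3. Tumors of 11 mice per group were pooled on day 8, and viable CD45-positive cells were sorted, fixed and hybridized to probes by the Chromium Flex method. Each group was therefore 1 library, no replicate error existed between treatments, and no test between treatments was made. The article gives other numbers of mice, days, volumes and doses than the sample records used here. The records of both single antibody libraries contradict themselves, because title and treatment field give opposite antibodies, and neither library can be tied to ipilimumab. Single antibody A here is the library titled anti-human CTLA-4 and single antibody B the library titled anti-mouse FcγRII. Values of 4 libraries are given below in the order isotype, single antibody A, single antibody B and combination.

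The libraries held 178178393, 129151823, 142472286 and 196362818 UMIs. The gate took 32 of 8148, 16 of 6364, 10 of 6083 and 26 of 7599 filtered cells. These cells were shallower than the filtered cells as a whole, with medians of 8151.5, 11229.5, 9171.5 and 8093.5 UMIs against 14895.5, 15351, 19171 and 18571. No full cell barcode was shared by 2 libraries, but each library had its own 8-base barcode ending, 4 in all, so none could be. The first 16 bases were shared by 2 or more libraries for 4461 barcodes. The edge of the gate mattered most in single antibody B. Both genes at 1 UMI or more gave 33, 17, 15 and 30 cells, and both at 3 or more gave 32, 16, 9 and 26 cells. Only 1 member, in single antibody B, stood at 2 UMIs of Ccr7, and 0 stood at 2 UMIs of Fscn1, while the median member held 31.5, 32, 21 and 44.5 UMIs of Ccr7 and 32, 45, 38 and 35.5 UMIs of Fscn1. Another 48 cells had both genes at 2 UMIs or more and failed the limits on C1q, Cd3 or NK genes, and their median depth was 34421, 28690, 39522 and 56966 UMIs. These values chose the members and are a description only.

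The name of the cells was checked against their other markers. Ccl22 was found in 75 and Mreg (melanoregulin) in 76 of 79 gated cells, once 5 cells had been set aside for markers of other types. Zbtb46, a transcription factor of conventional dendritic cells, was found in 75 of the 79, and Flt3, the receptor of the growth factor of dendritic cells, in 55. In all 84 cells, before this removal, the counts were 78 for Ccl22, 79 for Mreg, 77 for Zbtb46 and 56 for Flt3. Xcr1, the receptor of cross-presenting dendritic cells, was found in 2 and Cd209a, a lectin of the other conventional subset, in 1. Clec9a, a lectin that marks the same subset as Xcr1, was found in 13 of the 79, and 6 of these cells were in the combination library. For comparison, Clec9a had a UMI in 1.70, 0.779, 0.483 and 5.05 percent of the cells with at least 5 Cd3 UMIs, whose median depths were 4596, 5329, 4868 and 7628 UMIs, against 6.25, 25, 10 and 26.9 percent of the gated cells. These Cd3 cells also held macrophage RNA, as given below, so they do not measure free RNA alone.

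The 5 cells set aside went against the label or carried RNA of another type. The deepest gated cell of single antibody A (78928 UMIs, 32.5% of all UMIs of that library's gated cells) held 2230 UMIs of Col3a1, a fibroblast collagen, had 3.11% of its UMIs on the list of tumor and stroma genes, and showed 0 UMIs of Ccl22, Mreg, Flt3, Zbtb46, H2-Aa and Ptprc, the gene of CD45. The deepest cell of single antibody B (47157 UMIs, 36.1% of that library's gated UMIs) held 489 UMIs of Col3a1, 1.25% of UMIs on that list, and 0 UMIs of the same 6 genes. In the combination library 2 cells (29573 and 31573 UMIs) had 1.93% and 1.12% of UMIs on the macrophage list, and in the isotype library 1 cell (5492 UMIs) had 1.27%, and these 3 were the gated cells among the 5% highest doublet scores. Summed over the 84 cells, the tumor and stroma list stood at 50.1, 10191, 4544 and 71.7 counts per 1000000 UMIs (CPM) and the macrophage list, 16 genes without C1q, at 721, 703, 291 and 3999.6 CPM, and over the 79 cells at 47.3, 164, 23.996 and 32.1 CPM and 461, 785, 359.9 and 881 CPM. The limit of 1% that set the 5 cells aside was chosen after these values had been seen. Levels compared between libraries are therefore given for the 79 cells, 31, 15, 9 and 24 by library, with the value of all 84 beside the results that lead.

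The share of gated cells was 0.393% (95% exact binomial interval 0.269 to 0.554) in the isotype library, 0.251% (0.144 to 0.408) in single antibody A, 0.164% (0.0789 to 0.302) in single antibody B and 0.342% (0.224 to 0.501) in the combination. All intervals in this text cover counting error only. Against isotype, the share was 0.640 times as large in single antibody A (95% interval on the log scale, 0.352 to 1.17), 0.419 times in single antibody B (0.206 to 0.851) and 0.871 times in the combination (0.520 to 1.46). These intervals compare the cells of 2 libraries and not the treatments. They also moved with the edge of the gate, since with both genes at 1 UMI or more the ratios were 0.660 (0.368 to 1.18), 0.609 (0.331 to 1.12) and 0.975 (0.595 to 1.597). Without the 5 cells the ratios were 0.620, 0.389 and 0.830. With each cell drawn down to 4280 UMIs they were 0.607, 0.402 and 1.01, in which 858, 719, 373 and 869 shallower cells were left out. As a share of the cells in 3 dendritic cell gates, defined below, the gated cells were 19.5%, 12.8%, 16.9% and 18.6%, and single antibody B then stood at 0.869 times isotype (0.456 to 1.66). The Xcr1 and Clec9a gate among these was mixed, to a different degree in each library, so this is not a share of dendritic cells alone.

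**Figure D1:**
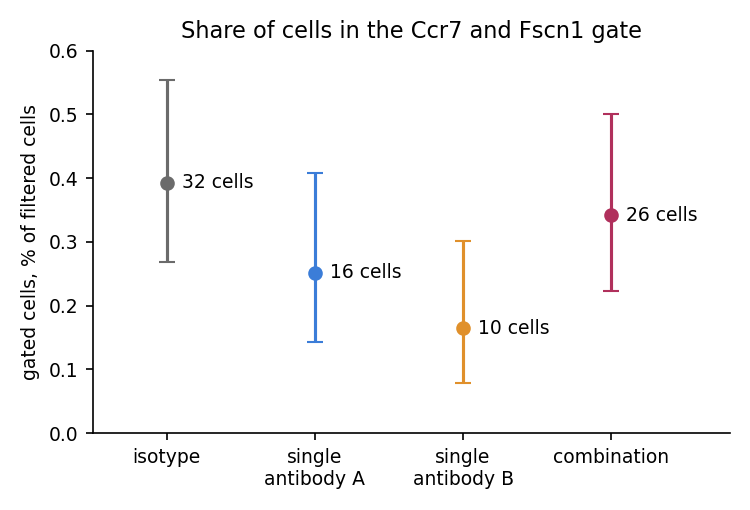
Share of filtered cells in the Ccr7 and Fscn1 gate (vertical axis, percent) in each of 4 libraries, with exact 95% binomial intervals for counting error. The isotype library has the highest share (0.393%) and single antibody B the lowest (0.164%), and the intervals of neighbouring libraries overlap.

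To see what set these cells apart from other dendritic cells, their summed UMIs were compared with those of 2 other gates in the same libraries. One gate took 77, 62, 29 and 34 cells with at least 3 UMIs of Cd209a. The other took 55, 47, 20 and 80 cells with at least 3 UMIs of Xcr1 and Clec9a together, and this second gate was mixed, since its macrophage list, again without C1q, summed to 1997, 5790.4, 3788 and 21921 CPM and its tumor and stroma list to 188, 1697, 693 and 154 CPM. It is called by its genes, and the Cd209a gate is read first. Of 7417 genes tested over 4 libraries with edgeR's quasi-likelihood test, 1102 (14.9%) were higher and 1210 (16.3%) lower in the gated cells than in the Cd209a gate, and 942 (12.7%) higher and 1068 (14.4%) lower than in the Xcr1 and Clec9a gate, at a Benjamini-Hochberg adjusted p under 0.05. Against both gates 805 (10.9%) were higher and 872 (11.8%) lower. The 4 libraries were 4 treatments, and a difference that passed was one large against its spread across them. A pass did not require the same direction in every library, and Ccl17, given below, went the other way in isotype. The tests describe the gated cells and do not show that they form a type.

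The genes that stood out most had few UMIs in both other gates, with up to 2 in the Cd209a gate and up to 97 (Cacnb3) in the Xcr1 and Clec9a gate. Cacnb3, the beta-3 subunit of voltage-gated calcium channels, was at 4740.3, 3064, 2812 and 3752 CPM in the gated cells and at 0, 1.29, 2.77 and 0 CPM, 2 UMIs in all, in the Cd209a gate (edgeR adjusted p = 5.8e-06). In the Xcr1 and Clec9a gate it was at 3.58, 33.97, 26.3 and 40.4 CPM (log2 difference 7.16 ± 0.58 SE, adjusted p = 1.2e-05). Every gated sum was far above every sum of the other gates, and the gated cells, 0.298% of the cells, held 35.3% of all Cacnb3 UMIs of the 4 libraries. Il12b, which encodes IL-12p40, was at 771, 502, 459.8 and 348 CPM and had 0 UMIs in the Cd209a gate, at least 390.4-fold higher over the 4 libraries when 3 UMIs are taken as the floor (edgeR adjusted p = 0.00022). In the Xcr1 and Clec9a gate it had 27 UMIs, all in the combination library, at 0, 0, 0 and 17.6 CPM (edgeR adjusted p = 0.00046). By its sum the isotype library had the highest Il12b and the combination the lowest, but the sum of single antibody B rested on 2 of its 10 cells, against 21 of 32, 10 of 16 and 14 of 26 cells with a UMI in isotype, single antibody A and the combination.

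Syn3, a synapsin of nerve terminals, was at 212, 119, 130.3 and 215 CPM and Tmem150c, a membrane protein linked to mechanosensitive currents, at 224, 119, 153 and 179 CPM, both with 0 UMIs in either other gate, at least 131-fold and 128-fold above the Cd209a gate (edgeR adjusted p = 0.00016 and 0.00016). The gated cells held 61.9% of all Syn3 and 75.1% of all Tmem150c UMIs. Npr1, the receptor of atrial natriuretic peptide, was at 409, 313, 329 and 258 CPM and Oprd1, the delta opioid receptor, at 73.3, 103, 130.3 and 104 CPM. The other genes of the 12 highest were Spata31d1b, Synpo2 (an actin-binding protein), Plekhs1, Apol7c (an apolipoprotein L), Insm1 (a zinc finger factor of neuroendocrine cells) and Slco5a1 (an organic anion transporter family member). All 24 leading genes, higher and lower, kept their call in both comparisons without the 5 cells, while DESeq2, the other count test, lost 12 of the 48 calls, those of Syn3 and Tmem150c against the Cd209a gate among them.

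Among the 12 genes lowest in the gated cells were markers of other dendritic cells and of monocytes. Siglech, a lectin of plasmacytoid dendritic cells, had 1 UMI in all gated cells against 14.9, 114, 99.6 and 217 CPM in the Cd209a gate. F13a1, the factor XIII A subunit of monocytes and macrophages, stood at 11.6, 8.22, 0 and 0 CPM against 384, 446, 567 and 685 CPM (log2 difference -6.42 ± 0.54 SE, adjusted p = 1.3e-05). Bcl11a, a transcription factor of dendritic cell and B cell development, stood at 0, 0, 15.3 and 10.8 CPM against 181, 161, 241 and 129.7 CPM (log2 difference -4.87 ± 0.70 SE, adjusted p = 0.00029). Each of the 4 Cd209a sums was above each gated sum for both genes. Clec10a, a lectin for galactose sugars, Ccl6, a chemokine, and Cd200r1, the inhibitory receptor of CD200, were lower too, with 2, 10 and 1 UMIs in all gated cells. Cd200 itself was higher in the gated cells, at 393, 349.6, 169 and 434 CPM against 2.72, 10.3, 8.30 and 76.1 CPM (log2 difference 4.50 ± 0.59 SE, adjusted p = 0.00016). Pdlim1, Fam117a, Acss1, Iqgap2 and Grap2 were also among them. Against cells with at least 2 Xcr1 UMIs, a gate added later with 5, 5, 4 and 8 cells, the calls of Pdlim1, Clec10a, Ccl6 and F13a1 were among those lost.

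**Figure D2:**
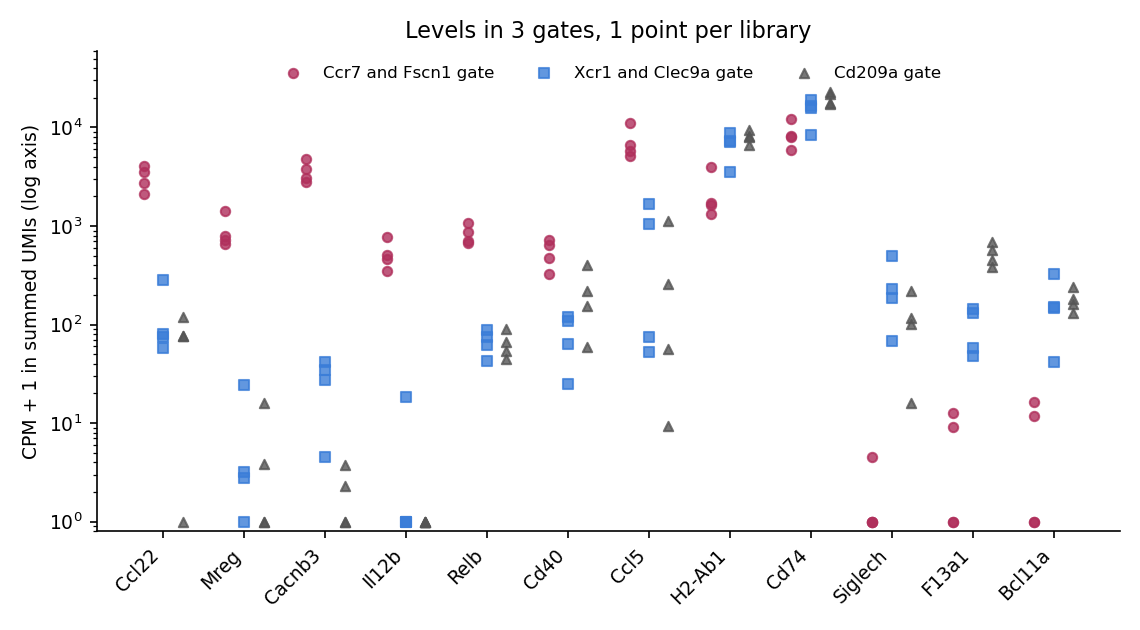
Levels of 12 genes as CPM + 1 on a log axis in the 84 gated cells (circles), the Xcr1 and Clec9a gate (squares) and the Cd209a gate (triangles), with 1 point for each of 4 libraries. Cacnb3, Il12b, Mreg and Relb separate the gated cells upward in every library, and Siglech, F13a1 and Bcl11a separate them downward.

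Most genes of the list of maturation and migration were higher in the gated cells. Of 27 tested list genes, 23 were higher than in the Cd209a gate and 2 lower (background 14.9% and 16.3%), with a median log2 difference of 3.72 against -0.02 over all genes, and 21 and 2 against the Xcr1 and Clec9a gate. Mreg was at 1431, 785, 713 and 659 CPM against 14.9, 0, 0 and 2.82 CPM (log2 difference 7.66 ± 0.82 SE, adjusted p = 5e-05). Tmem123, a cell surface mucin-like receptor, was at 4733, 3101, 3049.7 and 2441 CPM against 269, 256, 304 and 206 CPM, and Marcks, an actin-binding protein of the membrane, at 2291, 1682, 1272 and 2021 CPM against 388, 319, 301 and 403 CPM. Both were higher in every library. Cd44, an adhesion receptor (adjusted p = 0.00018), and Ptpn18, a phosphatase (adjusted p = 0.0046), were the 2 lower members. This list was put together with the known genes of such cells in view and is a description of them.

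The NF-κB list came next, the pathway through which CD40 and pattern receptors drive maturation. Of 23 genes, 17 were higher and 1 lower than in the Cd209a gate, and 17 and 0 against the Xcr1 and Clec9a gate. Relb, the partner of p52 in the alternative pathway, was at 1072, 699, 674 and 867 CPM against 65.2, 52.7, 44.3 and 90.2 CPM (log2 difference 3.81 ± 0.26 SE, adjusted p = 5.8e-06). Nfkb2, which encodes the p52 precursor, was at 1338, 1127, 1088 and 1229 CPM against 304, 325, 207 and 569 CPM (log2 difference 1.87 ± 0.30 SE, adjusted p = 0.00055), and Map3k14, the kinase NIK that drives this pathway, at 1111, 818, 919.5 and 1043 CPM against 177, 153, 163 and 197 CPM (log2 difference 2.55 ± 0.26 SE, adjusted p = 4.2e-05). Nfkbia, which encodes the inhibitor IκBα and is itself induced by NF-κB, was at 1419, 1193, 1509.5 and 1272 CPM against 447, 544, 409 and 939 CPM (log2 difference 1.36 ± 0.27 SE, adjusted p = 0.0024). Traf1, an adaptor of TNF receptors, was at 1693, 971, 1203 and 1373 CPM against 122, 141, 80.2 and 282 CPM (log2 difference 3.22 ± 0.32 SE, adjusted p = 3.4e-05). Nfkb1 did not pass (log2 difference 0.14 ± 0.27, adjusted p = 0.74), and Bcl3, an IκB-like coactivator, was lower. The NF-κB list did not differ much between libraries, with sums of 14087, 14041, 13318 and 13902 CPM over the 79 cells.

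Since NF-κB genes are known to be driven by NF-κB itself, the 250 bases before the start of each gene were searched for a loose form of the κB site, GGG and TTCC with any 3 bases between them, on both strands, in RefSeq promoters of GRCm38.p6. A stricter form, with A as the first of these 3 bases, was searched first and was found in 1.18% of 27025 promoters and 1 of the 20 NF-κB list genes with a promoter in the table, Nfkbia. The loose form includes it and was found in 4.63% of all promoters and in 7 of the 20 (35.0%), namely Rel, Nfkb2, Nfkbia, Nfkbie, Tnfaip3, Traf3 and Tnip1, and in 2 of 8 of the chemokine list (Cxcl10 and Ccl9), 0 of 9 of the genes that stood out most and 0 of 3 of Fscn1, Ccl22 and Mreg. A match is a run of letters and not a binding site. The 4 promoters below are those whose match lies within 40 bases of the start and whose genes were higher than in the Cd209a gate, with the match on either strand in capitals, each read 5′ to 3′ along its gene and ending 1 base before the start.
Nfkb2 (chr19:46304487-46304736, plus strand): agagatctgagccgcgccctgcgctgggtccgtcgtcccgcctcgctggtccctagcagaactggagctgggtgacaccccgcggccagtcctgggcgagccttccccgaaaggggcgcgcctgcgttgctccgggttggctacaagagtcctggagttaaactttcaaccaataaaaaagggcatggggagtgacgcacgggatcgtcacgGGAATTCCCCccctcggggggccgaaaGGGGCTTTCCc
Nfkbia (chr12:55492648-55492897, minus strand): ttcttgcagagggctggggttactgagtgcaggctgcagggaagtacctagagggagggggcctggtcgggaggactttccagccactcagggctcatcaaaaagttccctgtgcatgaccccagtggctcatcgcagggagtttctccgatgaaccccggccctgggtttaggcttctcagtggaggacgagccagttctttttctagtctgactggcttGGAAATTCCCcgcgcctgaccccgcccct
Tnfaip3 (chr10:19015411-19015660, minus strand): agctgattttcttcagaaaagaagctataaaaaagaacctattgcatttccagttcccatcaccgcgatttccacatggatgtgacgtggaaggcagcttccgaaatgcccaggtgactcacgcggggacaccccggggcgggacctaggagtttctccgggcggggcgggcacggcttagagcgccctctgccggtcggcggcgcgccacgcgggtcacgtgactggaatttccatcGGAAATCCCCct
Traf3 (chr12:111166120-111166369, plus strand): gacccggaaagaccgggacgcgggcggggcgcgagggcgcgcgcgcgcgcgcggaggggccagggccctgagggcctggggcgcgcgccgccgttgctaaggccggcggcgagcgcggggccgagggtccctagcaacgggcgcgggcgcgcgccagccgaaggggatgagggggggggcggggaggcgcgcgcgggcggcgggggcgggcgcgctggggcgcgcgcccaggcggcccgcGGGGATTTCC
In Nfkb2 the 2 matches begin 38 and 11 bases before the start, and in Nfkbia, Tnfaip3 and Traf3 the single match begins 29, 12 and 10 bases before it. Tnfaip3, the ubiquitin editor A20, was at 339, 267, 345 and 272 CPM against 91.01, 143, 55.3 and 135 CPM (edgeR adjusted p = 0.0015), and Traf3, an inhibitor of NIK, at 143, 61.7, 76.6 and 100.3 CPM against 20.4, 34.7, 19.4 and 56.4 CPM (adjusted p = 0.0039).

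For the lists that follow, the counts against the Cd209a gate are to be read beside 14.9% higher and 16.3% lower over all genes. Of 13 tested co-stimulation genes, 9 were higher and 2, Cd24a and Cd48, lower. Cd80, the ligand of CD28 and CTLA-4, was at 798, 547, 329 and 749 CPM against 93.7, 96.5, 60.8 and 169 CPM (log2 difference 2.64 ± 0.33 SE, adjusted p = 0.00012). Cd40, through which helper T cells activate dendritic cells, was at 714, 469, 322 and 642 CPM against 155, 219.9, 58.1 and 403 CPM (log2 difference 1.65 ± 0.31 SE, adjusted p = 0.0017). Cd86, the other ligand of CD28 and CTLA-4, differed least among the 9, at 413, 477, 229.9 and 556 CPM against 236, 185, 138 and 431 CPM (log2 difference 0.86 ± 0.22 SE, adjusted p = 0.011). Tnfsf4, which encodes the OX40 ligand, was at 359, 45.2, 146 and 104 CPM against 1.36, 0, 0 and 0 CPM (edgeR adjusted p = 1.3e-05).

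Of 20 tested regulatory genes, 9 were higher and 6 lower. Cd274 (PD-L1) was at 802, 596, 375 and 1057 CPM against 77.4, 88.7, 16.6 and 392 CPM (log2 difference 3.11 ± 0.57 SE, adjusted p = 0.0015), and Il4i1, a secreted amino acid oxidase, at 1755, 1382, 919.5 and 1498 CPM against 55.7, 20.6, 2.77 and 39.5 CPM (log2 difference 5.72 ± 0.68 SE, adjusted p = 9.2e-05). Socs2, a brake on cytokine receptors, was at 278, 189, 138 and 226 CPM against 16.3, 15.4, 0 and 2.82 CPM. Among the 6 lower was Lgals3, which encodes galectin-3 (adjusted p = 0.00022), and Il10, the inhibitory cytokine, had 0 UMIs in the 84 cells. Among the cytokines, 3 of 9 were higher, namely Il12b, Il15 and its receptor chain Il15ra, and 1, Tnf, was lower. Il15ra was at 409, 448, 299 and 437 CPM against 14.9, 14.1, 13.8 and 31.01 CPM (log2 difference 4.59 ± 0.31 SE, adjusted p = 5.8e-06). Il12a, which encodes the partner that turns p40 into IL-12, and Il23a, which turns it into IL-23, had 0 and 1 UMI in the 84 cells.

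Of 10 tested chemokines, 4 were higher, Ccl22, Ccl17, Ccl5 and Cxcl16, and 3 lower, Ccl3, Ccl4 and Ccl9. Ccl22 (GRCm38 chr8:94745590-94751699) was at 2699.9, 3516, 2115 and 4104 CPM against 118, 75.9, 0 and 76.1 CPM (log2 difference 5.78 ± 0.65 SE, adjusted p = 6.7e-05). The gated cells held 32.4% of all Ccl22 UMIs of the libraries and 9.82% of those of Ccl17, its neighbour at chr8:94810453-94812036. Ccl17 differed least of the 4, at 629, 2134, 697 and 1670.1 CPM against 784, 514, 69.1 and 335 CPM (log2 difference 1.70 ± 0.54 SE, adjusted p = 0.03), and its groups overlapped. Ccl5, which attracts T cells, was at 11035, 6564, 5755 and 5129 CPM against 55.7, 255, 8.30 and 1136 CPM (log2 difference 6.39 ± 1.14 SE, adjusted p = 0.0012). Ccl19, the ligand of CCR7, was found in 4 of the 79 cells. Of 7 chemokine receptors other than Ccr7, Cxcr5, the receptor of CXCL13, was higher at 135, 98.7, 38.3 and 108 CPM with 0 UMIs in the Cd209a gate (edgeR adjusted p = 0.00012), and Ccr1 and Ccr2 were among the lower.

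Several lists held more lower than higher members, where 16.3% of all genes were lower than in the Cd209a gate. All 6 tested Fc receptor genes were lower than in the Xcr1 and Clec9a gate and 5 of 6 lower than in the Cd209a gate, with sums of 363, 411, 337 and 1785 CPM against 3317, 3459, 3148 and 4167 CPM. Fcgr2b, the receptor that AT130-2 binds, had a UMI in 15.6, 18.8, 20 and 23.1 percent of the gated cells and in 29.6, 13.4, 15.5 and 40.6 percent of the Cd3 cells. The Cd3 cells had Fc receptor sums of 2767, 981, 1565 and 3208 CPM, above those of the gated cells in every library. They are therefore no clean background, and whether the gated cells expressed Fcgr2b could not be decided from them. Of 16 pattern receptors 7, of 21 type I interferon response genes 12, of 15 stress genes 9, of 11 Cd209a-subset genes 8, of 10 monocyte genes 6 and of 13 macrophage genes 7 were lower than in the Cd209a gate, and 0 of these were higher except 1 stress gene. Of 8 antigen uptake genes 3 were lower and 1 higher. Of 9 genes of the Xcr1 subset 6 were lower and 1 higher, and of 8 plasmacytoid genes 1 was lower than in the Cd209a gate, no more than the share of all genes, but 6 were lower than in the Xcr1 and Clec9a gate. Of 10 cell cycle genes 3 were lower and 0 higher, and Mki67, a marker of cycling cells, was found in 6 of the 79 cells. Among lineage factors 5 of 16 were higher, Batf3, Zbtb46, Id2, Irf8 and Flt3, and 6 lower. The lists of T cells, NK cells, B cells, neutrophils and stroma had 1 or 2 genes tested each, of which 0 were higher.

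Antigen presentation split by class. Of 16 tested class I genes, 10 were higher than in the Cd209a gate and 0 lower, and of 13 class II genes 1 was higher and 9 lower, again beside 14.9% and 16.3% of all genes. H2-Q7, a class Ib molecule, differed most of class I (log2 difference 3.35 ± 0.30 SE, adjusted p = 2e-05), though near-identical class I genes may share probes. H2-Ab1, the class II beta chain, was at 1628, 1727, 1326 and 3935 CPM against 9385, 8219.9, 7927 and 6659 CPM (log2 difference -2.00 ± 0.37 SE, adjusted p = 0.0014), and Cd74, the invariant chain, at 7942, 8098, 5946 and 12218 CPM against 22794, 21893, 17878 and 17377 CPM (log2 difference -1.23 ± 0.32 SE, adjusted p = 0.011). Each gated sum was below each Cd209a sum for both. Ciita, the master activator of class II genes, was lower (adjusted p = 0.0032), and H2-Eb2, a beta chain gene of its own, was the member that was higher (adjusted p = 0.00011). Against the Xcr1 and Clec9a gate the counts were 7 and 0 of 16, and 1 and 6 of 13, beside 12.7% and 14.4%.

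Class II was not evenly low. Among the 79 cells, 22 had 0 UMIs of H2-Aa, the class II alpha chain, 24 had 1 to 9 and 33 had 10 or more, with median depths of 6184 UMIs in the first and 9988 UMIs in the last. The class II list took between 0.118% and 8.29% of the UMIs of a cell, with quartiles of 0.450% and 2.485% and a median of 0.635%. In the Cd3 cells, H2-Aa had a UMI in 42.2, 25.5, 22.2 and 55.6 percent against 71.9, 68.8, 70 and 69.2 percent of the gated cells. The macrophage list of the Cd3 cells, without C1q, summed to 8142, 2145, 5042 and 9674 CPM, so they do not measure free RNA alone. Whether the gated cells with 1 to 9 UMIs expressed H2-Aa could not be decided from them. Each library held cells with 0 and with 10 or more UMIs, since 8, 4, 2 and 8 cells had 0 H2-Aa UMIs and 13, 7, 3 and 10 had 10 or more. Within libraries, the level of H2-Aa and that of Cacnb3 ran against each other, with Spearman coefficients over 31, 15, 9 and 24 cells of -0.49, -0.89, -0.72 and -0.68. Fscn1, one of the gate genes, gave -0.50, -0.32, -0.51 and -0.63, and Cd74 gave 0.47, 0.77, 0.90 and 0.81. Ccl22 gave 0.09, 0.29, 0.08 and 0.10, and Ccr7, which did not keep 1 sign, gave -0.06, 0.11, -0.43 and -0.30. Of the 3 cells with 0 UMIs of Cacnb3, all with at least 50.8 UMIs of H2-Aa per 10000, 1 in the combination library went against the label, with 3 UMIs of Ccr7, 4 of Fscn1 and 0 of Ccl22, Mreg, Relb, Cd40, Cd80 and Ccl5. These coefficients are across cells that share a library and are scaled by the same depth, and they carry no p.

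**Figure D3:**
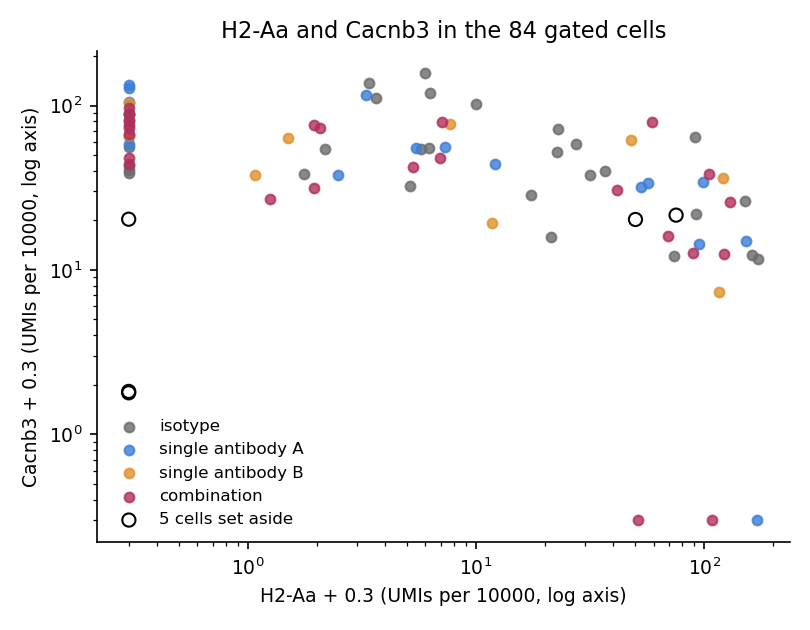
H2-Aa (horizontal) and Cacnb3 (vertical) in each gated cell as UMIs per 10000 plus 0.3, both on log axes, colored by library, with the 5 cells set aside as open circles. Of the 79 other cells, 22 lie at the left edge with 0 H2-Aa UMIs, and cells with high H2-Aa tend to have lower Cacnb3 in every library.

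Other members varied by cell as well. Il12b was found in 47 of the 84 cells and Ccl17 in 48, both in 31, and neither in 20. Ccl22 and Ccl17 went together within libraries (Spearman 0.54, 0.67, 0.44 and 0.60 over the 79 cells), whereas Ccl22 and Il12b did not keep 1 sign (0.31, -0.33, 0.43 and -0.19). Of 4473 genes compared over all 84 cells, Ccl17 was the one most like Ccl22, with a mean coefficient of 0.58 over the 4 libraries, followed by Vwa5a (0.55), Cst3 (0.54), Rgs1 (0.51), Bcl2a1b (0.50) and Fchsd2 (0.47). The quartiles of Ccl22 over the 79 cells were 12.1 and 52.3 UMIs per 10000, and the highest cell reached 231. Aldh1a2, an enzyme that makes retinoic acid, was found in 16 of the 79 cells, and in 0.243, 0, 0 and 0 percent of the Cd3 cells.

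The libraries were then set side by side. With all 84 cells, 483 of 4936 genes (9.79%) stood at least 2-fold higher and 296 (6.0%) at least 2-fold lower in the combination than in isotype, among genes with at least 50 CPM in either. Without the 5 cells the counts were 341 (7.13%) and 333 (6.96%) of 4785. By a rule that asked for the largest ratio and a distance of 1.5-fold from both single antibodies, the 10 leading genes of all 84 cells were Mmp12, Ly6a, Nos2, Cd14, C3, Clec4n, Mgl2, Ms4a6d, Fpr2 and Ly6i. These are mostly genes of macrophages and monocytes, and, except for Mgl2, most of their combination UMIs lay in the cells set aside. Nos2, the inducible nitric oxide synthase, went from 495 to 4.59 CPM in the combination when they were left out, and Mmp12, a macrophage elastase, from 831 to 27.5 CPM. The same rule on the 79 cells gave Cxcl10, Mgl2, Cd7, Gfra2, Scn4b, Kdr, Il2rb, Itgb7, Ccl24 and Jaml, of which 1, Mgl2, was in both lists. Several of these again rested on few cells, such as Cxcl10, of which 1 cell held 87.4% of the UMIs in the combination. Spread over more cells was Itgb7, an integrin chain of homing to the gut, at 19.7, 18.3, 83.99 and 174 CPM in 5, 2, 2 and 10 cells, with a ratio of 8.85 (3.48 to 28.8), and of 5.84 (2.61 to 15.4) with all 84 cells. These ratios, too, chose the genes.

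At the other end the 79 cells gave Ets2, Sipa1l1, Ceacam1, Fdps, Fyb, Galc, Stxbp6, Tada2b, Cd24a and Zfand2a, of which 3 were also among the 10 lowest of all 84 cells. Ets2, a transcription factor, was at 98.5, 183, 108 and 13.8 CPM in 11, 6, 5 and 3 cells, Sipa1l1, a regulator of Rap GTPases, at 98.5, 54.8, 59.99 and 9.18 CPM and Ceacam1, an inhibitory adhesion receptor, at 122, 97.4, 216 and 18.4 CPM. The combination is the lowest of the 4 libraries for each because the rule asked for it, so these values are a description. With all 84 cells, Ets2 was at 108, 127, 68.96 and 93.2 CPM, with single antibody B the lowest and a ratio of combination to isotype of 0.863 (0.486 to 1.53), against 0.140 (0.0270 to 0.458) with the 79. For Sipa1l1 the ratio was 0.186 (0.0556 to 0.494) with all 84 and 0.0932 (0.0107 to 0.374) with the 79 cells, and for Ceacam1 0.348 (0.163 to 0.695) and 0.150 (0.0385 to 0.425).

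Of the chemokines, Ccl22 and Ccl17 stood higher and Ccl5 lower in the combination than in isotype. Ccl22 was at 2743, 5206, 3311 and 5173 CPM in the 79 cells (2699.9, 3516, 2115 and 4104 in all 84). Isotype was the lowest of the 79-cell values, and single antibody A and the combination were the highest and close to each other. The combination stood at 1.89 (1.71 to 2.08) times isotype, and with all 84 cells at 1.52 (1.38 to 1.67) times. The median cell had 14.5, 34.9, 41.4 and 44.3 Ccl22 UMIs per 10000, so isotype was also the lowest by the median cell. Ccl17 was at 638, 3160.1, 1092 and 2111 CPM, at a ratio of 3.31 (2.76 to 3.98), but the median cell had 0.991, 5.27, 0.769 and 0.382 UMIs per 10000, so its sums were carried by a minority of cells. The single cell with the most Ccl17 held 29.6, 58.2, 76.9 and 36.7 percent of its UMIs.

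Ccl5 went the other way, at 11073, 9718, 7919 and 4167 CPM in the 79 cells (11035, 6564, 5755 and 5129 in all 84). Isotype was the highest and the combination the lowest, at 0.376 (0.349 to 0.406) times isotype, and with all 84 cells at 0.465 (0.436 to 0.495) times. The median cell had 96.9, 84.2, 93.1 and 45.1 UMIs per 10000. In the same libraries Ccl5 stood higher in the combination than in isotype in other gates, with 55.7, 255, 8.30 and 1136 CPM in the Cd209a gate, 51.98, 1058, 74.5 and 1680.3 CPM in the Xcr1 and Clec9a gate and 271, 434, 169 and 1176 CPM in cells with at least 1% of UMIs on C1q. The difference between the gates was not tested. Mreg was at 1458, 1163, 1116 and 757 CPM, with a median of 13.9, 10.7, 12.8 and 6.45 UMIs per 10000. Isotype was the highest and the combination the lowest, at 0.519 (0.430 to 0.626) times isotype, and with all 84 cells at 0.461 (0.384 to 0.551) times. Tmem123 was at 4788, 4457, 4403 and 2864 CPM, at 0.598 (0.542 to 0.659) times isotype, with the single antibodies near isotype. Il12b was at 784, 743, 719.9 and 431 CPM in 20, 10, 2 and 13 cells, at 0.550 (0.426 to 0.707) times isotype. Cacnb3 differed by less, at 0.881 (0.808 to 0.960) times isotype. Over the maturation list in the 79 cells, 0 of 27 genes were at least 2-fold higher, beside 7.13% of all genes. At least 2-fold lower were 3 (Cxcr4, Slco5a1 and Laptm4b), beside 6.96% of all genes. In all 84 cells 0 of 27 were higher and 6 lower, beside 9.79% and 6.0% of all genes.

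**Figure D4:**
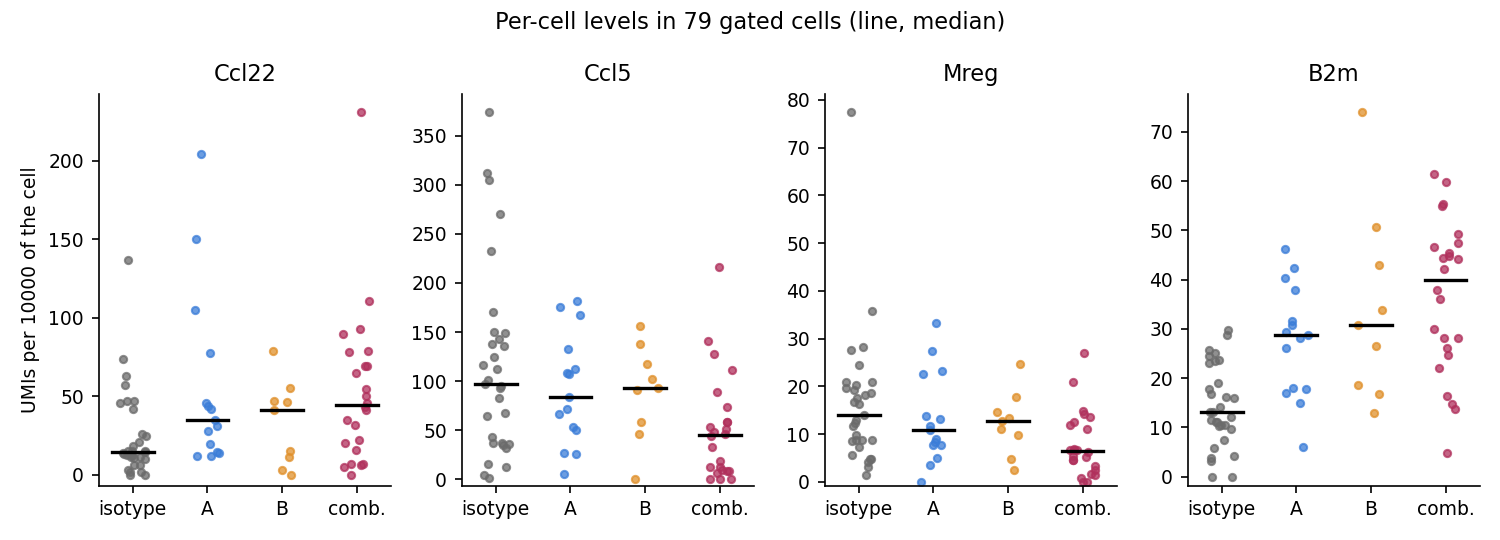
UMIs per 10000 of Ccl22, Ccl5, Mreg and B2m in each of the 79 cells (31, 15, 9 and 24 by library; A and B, single antibodies; comb., combination), with the median of each library as a line. The isotype cells lie lowest for Ccl22 and B2m (medians 14.5 and 13.1), and the combination cells lie lowest for Ccl5 and Mreg (medians 45.1 and 6.45), with cells of all libraries overlapping.

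Many genes that interferon gamma induces stood higher in the combination library. In all 84 cells, 12 of the 20 interferon-gamma list genes with enough UMIs stood at least 2-fold above isotype and 0 at least 2-fold below. Over all genes these shares were 9.79% and 6.0%. In the 79 cells the counts were 11 and 0 of 20, against 7.13% and 6.96% of all genes. The median log2 ratio of the 20 genes was 1.16 in the 79 cells, against -0.01 over all genes. The macrophage list also summed higher in the combination than in isotype. In single antibody B it summed lower than in isotype, while the interferon-gamma list summed higher. In the same 79 cells the sum of the 16 macrophage genes was 461, 785, 359.9 and 881 CPM, 1.91 times as high in the combination as in isotype, against 1.82 times for the interferon-gamma list. Lyz2, lysozyme, the macrophage gene with the most UMIs, was at 90.6, 389.7, 168 and 207 CPM, and Adgre1, which encodes F4/80, at 3.94, 12.2, 0 and 0 CPM. The part of macrophage RNA in the result was not tested. Summed, the interferon-gamma list was at 5292, 6893, 7007 and 9634 CPM in the 79 cells and 5349.8, 5149, 6620.4 and 9988 CPM in all 84. Irf1, a transcription factor that interferons induce, was at 879, 1248, 792 and 1519 CPM, with a ratio of 1.73 (1.45 to 2.06) and medians of 8.04, 11.04, 7.69 and 14.5 UMIs per 10000, and Gbp2, a GTPase that acts on intracellular microbes, at 406, 749, 684 and 895 CPM, with a ratio of 2.21 (1.73 to 2.83). The combination was the highest library for both. Serpina3g, a protease inhibitor, was at 102, 122, 71.99 and 381 CPM, with a ratio of 3.72 (2.37 to 6.02) and 48.2% of the combination's UMIs in 1 cell, and Irgm1, an immunity-related GTPase, at 94.6, 128, 264 and 289 CPM, with a ratio of 3.06 (1.88 to 5.12).

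The sums of further members rested on few cells as well. Cxcl9, a ligand of CXCR3, was at 43.3, 109.6, 732 and 505 CPM in 8, 4, 2 and 12 cells, and 1 of the 2 cells of single antibody B held nearly all of its UMIs (98.4%). Ciita was at 55.2, 85.2, 180.0 and 353 CPM in 2, 2, 1 and 9 cells. Per cell, the list as a whole had medians of 54.4, 60.1, 37.5 and 61.2 UMIs per 10000, which differed little between isotype and combination, while the third quartile and the highest cell of the combination lay above those of isotype (61.1, 71.7, 61.7 and 96.1 and 128, 268, 142 and 348). The same list summed to 4811, 6833, 4024 and 10085 CPM in the C1q-rich cells and 6829.6, 6989, 3612 and 11014 CPM in the Cd209a gate, with the combination highest in both, but to 6633, 8982, 2959.7 and 7862 CPM in the Xcr1 and Clec9a gate, with single antibody A the highest.

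**Figure D5:**
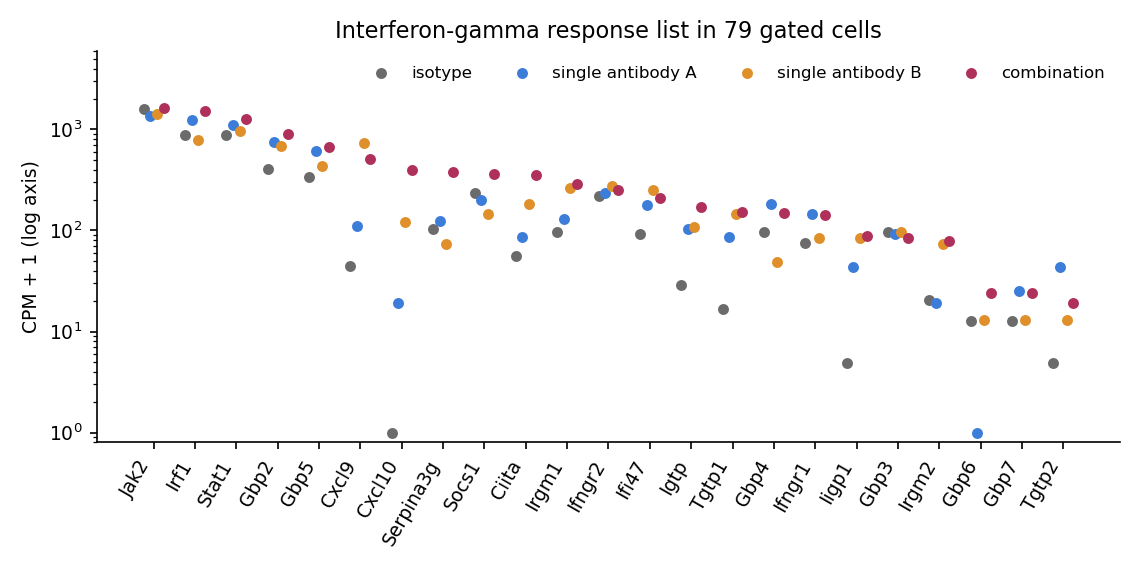
The 23 measured genes of the interferon-gamma list as CPM + 1 on a log axis in the 79 cells, with 1 point per library, ordered by the level in the combination. The combination lies at least 2-fold above isotype for 11 of the 20 genes with 50 CPM in either, and Jak2 and Gbp3 lie near or below isotype.

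B2m, the light chain of class I, was at 1450.1, 2892, 3263 and 3681 CPM in the 79 cells, and the combination stood at 2.54 (2.24 to 2.88) times isotype. The median cell had 13.1, 28.7, 30.8 and 39.98 UMIs per 10000, with isotype below the other 3 libraries. It was at 1049.8, 2305, 2024 and 3262 CPM in the C1q-rich cells and at 1155, 2226, 2592 and 3101 CPM in cells with at least 5 Cd3 UMIs. Isotype was thus lowest in these other cells too. In the 79 cells the class I list summed to 11889, 13974, 14146 and 15527 CPM and the class II list to 20515, 27942, 22316 and 26106 CPM. Class I was lowest in single antibody B in the Cd209a gate (5970, 6687, 5280 and 8144 CPM). The same held in the Xcr1 and Clec9a gate (7024, 8946, 5124 and 9937 CPM). In the 79 cells, 1 of 15 class I genes and 3 of 11 class II genes were at least 2-fold higher in the combination, where 7.13% of all genes were, so the count of class I was near that of all genes. Cd274 was at 799.9, 877, 588 and 1157 CPM, at 1.45 (1.20 to 1.75) times isotype. Of 17 regulatory genes 5 were at least 2-fold higher and 1, Aldh1a2, at least 2-fold lower, beside 7.13% and 6.96% of all genes. Aldh1a2 had a UMI in 7 of 31 isotype and 5 of 24 combination cells, and 1 cell held 46.3% of its isotype UMIs. Il1rn, the antagonist of the IL-1 receptor, was at 59.1, 237, 11.998 and 262 CPM, with a ratio of 4.43 (2.47 to 8.42), with 31.6% of the combination's UMIs in 1 cell.

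Further lists differed with the 5 cells. All 5 Fc receptor genes with enough UMIs stood at least 2-fold above isotype in the combination with all 84 cells, at sums of 363, 411, 337 and 1785 CPM, and 0 of 1 did with the 79, at 264, 560.2, 479.9 and 422 CPM. The macrophage list, without C1q, went from 7 of 9 to 3 of 5. Over all genes the shares at least 2-fold higher were 9.79% with the 84 and 7.13% with the 79 cells. Of 5 cell cycle genes 4 stood at least 2-fold below isotype in both sets, beside 6.0% and 6.96% of all genes. Top2a was at 66.99, 0, 11.998 and 9.18 CPM in 5, 0, 1 and 2 cells, with 70.6% of the isotype library's UMIs in 1 cell, and Mcm6, a replication factor, at 138, 60.9, 35.99 and 36.7 CPM in 13, 6, 2 and 6 cells, where 1 cell held 42.9% of the isotype UMIs of all 84 cells. Of 23 NF-κB genes 0 stood 2-fold apart in either direction in the 79 cells, and of 5 cytokines also 0. In all 84 cells 1 of 23 NF-κB genes was at least 2-fold higher and 2 of 5 cytokines were at least 2-fold lower. Of 13 co-stimulation genes in the 79 cells 1, Cd48, was at least 2-fold higher and 2, Tnfsf4 and Cd24a, at least 2-fold lower. Over all genes these shares were 7.13% and 6.96%. In all 84 cells 0 of 12 were higher and 4 lower, beside 9.79% and 6.0% of all genes.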

How the data were processed

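The authors deposited 1 matrix of UMI counts per library, made with Cell Ranger (version 7.0.0 in the submitters' processing notes, 7.2.0 in the file headers) on GRCm38, for 19059 genes. From these counts, cells with under 500 genes (67) or over 10% mitochondrial UMIs (48) were left out. Scrublet (scanpy 1.11.5) gave each cell a doublet score, and the 5% highest scores of each library were left out in an alternative only. Counts were summed over the cells of a gate in each library and scaled to CPM, with exact Poisson intervals and exact conditional intervals of ratios at 95%, which cover counting error only. Gates were compared with edgeR 4.0.16 (glmQLFit and glmQLFTest, TMM, filterByExpr, the library as a block, Benjamini-Hochberg adjustment over 7417 genes) on 12 sums of 3 gates in 4 libraries. The block pairs gates of the same library. On simulated counts for 7193 genes, 98 of 100 genes changed 4-fold were found in each comparison, 34 and 23 of 100 changed 2-fold, and 7 and 6 unchanged genes were called. Named genes were the 12 highest and 12 lowest by the mean of both log2 differences, among genes that passed against both gates, kept their direction in all 4 libraries and reached 50 CPM, and, between libraries, the 10 highest and 10 lowest ratios of combination to isotype with at least 50 CPM and 1.5-fold from both single antibodies. The members and the 28 gene lists (402 of 414 genes measured) were chosen with earlier results of these data known. Alternatives were another count test, other filters, gates and scalings, each library left out, and, added after the data were seen, a gate on Xcr1 alone and the removal of the 5 cells. Some single-gene results are not reported here.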

Additional observations from a re-analysis of the deposited data

How the results depend on the processing

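Depth and the number of cells limited all values: 84 cells and 911956 UMIs stood behind them, and 1 library per treatment gave no replicate error. Of the summary values under each alternative, 76 stayed within their limits and 7 moved. Without the block that pairs gates of a library, 873 genes were higher and 963 lower than in the Xcr1 and Clec9a gate, and 1056 and 1101 against the Cd209a gate, and all 48 named calls held. Leaving out each library in turn gave 598 to 834 higher and 644 to 916 lower genes against the Xcr1 and Clec9a gate, with the lowest counts without the isotype library, and 791 to 1055 higher and 881 to 1149 lower against the Cd209a gate. Fewer samples entered these fits. Against cells with at least 2 Xcr1 UMIs, 632 genes were lower, and 77 of the 2010 calls against the Xcr1 and Clec9a gate turned direction while 1042 held. The cause was not tested. Without the 5 cells, 1895 of these 2010 calls and 2108 of the 2312 against the Cd209a gate held, and 1 and 2 turned direction. As a share of the 3 dendritic cell gates, of which the Xcr1 and Clec9a gate was mixed, single antibody B stood at 0.869 times isotype. Between combination and isotype, 611 genes were past 2-fold lower without cells that had a UMI of other cell types, and a minimum of 20 CPM gave 914 higher and 623 lower genes, of 7321 compared. For the 24 genes named between gates and the 20 named between libraries from all 84 cells, 567 values stayed, 28 moved, 19 lost their call and 0 turned direction. The 20 genes named from the 79 cells were not rerun.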
